A study of Mus musculus with 2 samples.

Results

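The regions described here are the 40 spots of each heart section in which the smooth muscle genes Myh11, Tagln, Acta2 and Mylk took the largest share of the captured transcripts, 80 of the 1671 spots deposited for both sections. A spot is a barcoded patch of a capture slide that takes up RNA from the tissue above it, so it is a small region that can hold several cells of different types. Transcripts are given as UMIs, the molecular tags that count captured molecules. In each section, spots with at least 500 UMIs were kept, the 20% with the largest share of 8 matrix genes (Col1a1, Col1a2, Col3a1, Postn, Fn1, Cthrc1, Tnc and Lox) were left out, and the remaining 649 spots of PD1 Het and 681 of PD1 KO were ranked by the summed share of the 4 smooth muscle genes. The 40 highest-ranked spots were set against the rest, 609 and 641 spots. The 4 genes chose the spots, so their levels are a description.

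The data came from Visium libraries of transverse sections of C57BL/6 mouse hearts. The left anterior descending artery of pups was tied off on day 2 of life, and 7 days afterwards the hearts were sectioned at 10 µm, 200 µm below the suture, with 18 min of permeabilization. The PD1 Het section came from a PD1 +/- mouse and the PD1 KO section from a PD1 -/- mouse, with 1 section of each genotype and no uninjured heart analysed here. PD1 is the inhibitory receptor of T cells that Pdcd1 encodes.

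Vascular smooth muscle cells form the medial layer of arteries and set vessel diameter by contracting. Their contractile genes are driven by serum response factor and its partner myocardin, which act through CArG boxes in promoters. In a growing coronary artery the layer is built beside arterial endothelium, whose Notch ligands act on Notch receptors of the muscle cells, and the muscle cells lay down elastic fibres between them.

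The 40 spots held 625887 UMIs in PD1 Het and 1023780 in PD1 KO, with medians of 16021 and 24824.5 UMIs per spot against 15732 and 28348 in the rest. Levels below are CPM, the UMIs of a gene summed over spots and scaled to a common total. A count of 0 in the 40 spots allows a level of up to 4.79 CPM in PD1 Het and 2.93 CPM in PD1 KO, which is what 3 UMIs would give. Mitochondrial genes took 25.8% of the UMIs of the 40 spots in PD1 Het and 15.1% in PD1 KO. The chosen PD1 Het spots held 27 UMIs of Xist and 0 of 4 Y-linked genes, and the chosen PD1 KO spots 0 and 137, so the sections also differ by sex, which cannot be told apart from genotype. Pdcd1, the targeted gene, had no UMI in any retained spot of either section, so it gives no check of genotype at this depth. Each genotype has 1 section and spots are not replicates, so no test was made. Intervals are 95% exact intervals that cover counting error only.

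Among the retained spots the ranking was steep in both sections. The highest 4-gene shares of all lay among the dropped matrix-rich spots, 0.872% in PD1 Het and 0.603% in PD1 KO. The 4-gene share fell from 0.440% of a spot's UMIs at rank 1 to 0.0782% at rank 40 in PD1 Het, with a median of 0.0983%. In the PD1 KO section it fell from 0.552% to 0.0895%, with a median of 0.118%. The next spots outside the cut were almost level with the last ones inside it, with 0.0782% and 0.0875% at rank 41, so the number 40 does not mark a step in the data. The median of the rest was 0.0358% and 0.0380%.

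**Figure D1:**
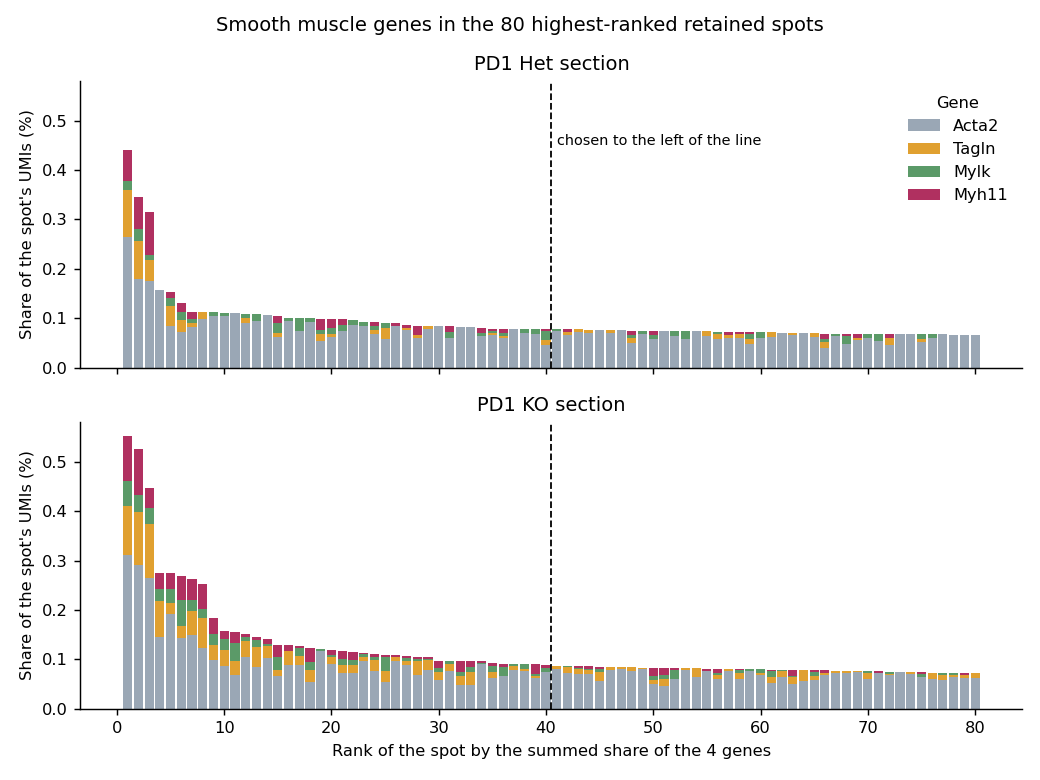
Share of a spot's UMIs (percent, vertical axis) taken by Acta2, Tagln, Mylk and Myh11 (stacked bars) in the 80 highest-ranked retained spots (horizontal axis) of PD1 Het (top) and the PD1 KO section (bottom). The dashed line marks the cut after rank 40, where the share is 0.0782% and 0.0895%. Acta2 makes up most of nearly every bar, and Myh11 is mostly seen in the leading spots.

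The genes of the rule differed in how sharply they marked these spots. Myh11, the smooth muscle myosin heavy chain (chromosome 16, 14194535 to 14291372, minus strand, GRCm38), stood at 94.3 CPM in the 40 spots against 8.66 CPM in the rest of PD1 Het, and 172 against 10.8 CPM in PD1 KO, 10.9-fold and 16.0-fold apart. Tagln, an actin-binding protein of differentiated smooth muscle (chromosome 9, 45929619 to 45936058, minus strand), had log2 ratios of 2.80 and 3.39. Mylk, the kinase that phosphorylates myosin light chain to start contraction (chromosome 16, 34745210 to 35002420, plus strand), had 2.00 and 2.60. Acta2, smooth muscle actin (chromosome 19, 34241090 to 34255590, minus strand), differed least, with 1.43 and 1.52. It also supplied most of the ranking, 551 of the 720 UMIs of the 4 genes in the PD1 Het spots and 1024 of 1608 in the PD1 KO spots.

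More of the chosen PD1 KO spots than of the chosen PD1 Het spots held Myh11, a gene of the rule. At least 1 UMI of Myh11 was found in 19 of the 40 PD1 Het spots and in 36 of the 40 PD1 KO spots, against 70 of 609 and 149 of 641 spots in the rest. After each spot was thinned to 10000 UMIs, the shares were 38.5% of 39 PD1 Het spots and 67.5% of 40 PD1 KO spots. The gap was smaller than in the unthinned spots. These shares describe the spots of 1 section each, and spots are not replicates of a genotype. The highest spot held 11 and 19 UMIs, and the median spot 0 and 2.5. Thus 21 of the spots chosen in PD1 Het carried no Myh11 UMI and were ranked high by the other genes of the rule. A label of smooth muscle therefore rests on Myh11, a gene of the rule, in only 19 of the PD1 Het spots. Myh11 does not show whether the muscle is arterial, and the regions are called the 40 spots below.

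Each gene of the rule was also read in spots that had been ranked without it. Ranked by Tagln, Acta2 and Mylk alone, 34 of the 40 PD1 Het spots and 36 of the 40 PD1 KO spots were chosen again, and the log2 ratio of Myh11 was 3.02 (2.49 to 3.53) and 3.70. Left out in the same way, Tagln gave 2.56 and 3.18, and Mylk 1.59 and 2.30. Acta2 gave 0.66 (0.50 to 0.82) in PD1 Het, where only 17 of the spots were shared, and 1.33 (1.22 to 1.43) in PD1 KO, where 31 were. All 4 genes were thus higher in spots that the other 3 genes of the rule picked. All 4 reduced rankings chose 12 PD1 Het spots and 23 PD1 KO spots in common, among them 6 and 10 of the 10 highest-ranked spots. The reduced rankings share genes with the rule, so this overlap is a description.

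The contractile genes that the rule did not use were higher in the 40 spots than in the rest of both sections. Summed over a list of 18 such genes, they stood at 1393 CPM in the 40 spots and 963 CPM in the rest of PD1 Het, a log2 ratio of 0.53 (0.43 to 0.63). In the PD1 KO section the sum was 2164 against 1147 CPM, a log2 ratio of 0.92 (0.85 to 0.98). The dropped matrix-rich spots held 1644 CPM in PD1 Het, above the 40 spots, and 1735 CPM in PD1 KO, below them. Of the 10 members with at least 200 UMIs in the retained PD1 Het spots, 1 was at least 2-fold higher in the 40 spots, where 0.212% of all 5194 genes with that many UMIs were. Of 13 such members in PD1 KO, 7 were, where 1.04% of all 8485 genes were. The members' median log2 ratio was 0.52 and 1.09, and the median over all genes 0.04 and 0.07. Higher at all were 10 of 10 members in PD1 Het, where 56.4% of all genes were, and 12 of 13 in PD1 KO, where 59.5% were. None of these members was at least 2-fold lower. The UMIs of the 40 spots count toward the minimum of 200. With the minimum met in the rest alone, a setting chosen after seeing the data, 1 of 10 and 7 of 13 members were at least 2-fold higher, beside 6 (0.121%) of 4946 and 73 (0.881%) of 8285 genes. The size depended on the matrix-rich spots: with none dropped the list had log2 ratios of 1.38 and 1.29 and 168 and 360 genes were at least 2-fold higher, and with the most matrix-rich 40% dropped it had 0.30 and 0.51, with 3 and 9 genes.

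Tropomyosin and the regulatory light chain were among the highest contractile genes past the UMI minimum in both sections. Tpm2, a tropomyosin that lies along the actin filament, stood at 109 CPM in the 40 spots against 53.8 CPM in the rest of PD1 Het, and 191 against 68.7 CPM in PD1 KO, log2 ratios of 1.01 (0.63 to 1.38) and 1.48 (1.25 to 1.70). It was 1 of 3 genes at least 2-fold higher in both sections. Myl9, the regulatory light chain that Mylk phosphorylates, had log2 ratios of 0.97 and 1.28, and its highest spot held 17 and 46 UMIs against a median spot of 4 and 9. Flna, filamin A, which crosslinks actin, had 0.45 and 1.09. Smtn, smoothelin, is used as a mark of contractile smooth muscle, but its ratios were 0.05 (-0.21 to 0.29) and -0.08 (-0.28 to 0.12), so it did not separate the 40 spots from the rest.

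Several members of the list were sparse, and are named here after their values were seen. Lmod1, a leiomodin that nucleates actin filaments, had 7 and 14 UMIs in the 40 spots, and log2 ratios of 2.89 and 3.09. Cnn1, calponin, had 6 and 19 UMIs and ratios of 2.99 (1.29 to 4.51) and 2.13 (1.33 to 2.87). Nrip2 had 11 and 55 UMIs and ratios of 2.02 (lower bound 0.92) and 3.72 (3.19 to 4.24). Few molecules were counted for these genes, and their intervals are wide. Sncg, gamma-synuclein, had 2 UMIs in the PD1 Het spots and 22 in the PD1 KO spots, with 1.71 and 1.39 CPM in the rest.

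The promoters of the contractile genes were searched for the CArG box, the site of serum response factor, because several of these genes were higher together. The windows reach from 250 bases before to 50 bases after a gene's start (RefSeq, GRCm38.p6). The box was spelled CC, then 6 letters that are each A or T, then GG, on both strands. It was found in 1.63% of all 32851 windows. A box with 1 mismatch here keeps CC and GG and has exactly 1 C or G among the 6 inner letters. Such a box was found in 8.5% of windows, in a search made after the exact one. Of the 18 contractile genes, 15 had a window, and an exact box was found for Myl9 alone; a box with 1 mismatch was found for Myl9 and Pcp4l1. Of the genes of the rule, Acta2 and Mylk had a window, and Acta2 held 2 boxes with 1 mismatch each. The stretches below show the boxes in capitals, 5′ to 3′ on the gene's strand, for the regulatory light chain gene at chr2:156775283-156775394 (plus strand) and for smooth muscle actin at chr19:34255378-34255477 (minus strand).
Myl9: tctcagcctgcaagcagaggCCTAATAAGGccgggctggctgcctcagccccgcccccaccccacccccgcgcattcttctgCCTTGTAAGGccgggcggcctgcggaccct
Acta2: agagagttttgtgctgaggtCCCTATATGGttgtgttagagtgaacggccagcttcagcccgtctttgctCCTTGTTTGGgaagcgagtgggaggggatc
In Myl9 the exact box CCTAATAAGG starts at base -161 and the mismatched box at -99, and in Acta2 the boxes start at -84 and -34, counted from the start site. A match describes the letters only.

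Regulators of the smooth muscle programme, and genes of vessel tone, were near the level of the rest in PD1 Het and slightly higher in PD1 KO. The 10 regulators found in the feature table summed to a log2 ratio of 0.12 (-0.09 to 0.33) and 0.19 (0.05 to 0.32). Gata6 and Tbx20, transcription factors that heart muscle also uses, had 0.07 and 0.14, and -0.14 and -0.21. The list of 18 tone genes had -0.02 (-0.23 to 0.18) in PD1 Het and 0.33 (0.21 to 0.44) in PD1 KO. Its member Gucy1a1, a subunit of the nitric oxide receptor that relaxes smooth muscle, stood at 35.2 CPM in the 40 spots against 30.9 CPM in the rest of PD1 Het, and 108 against 45.5 CPM in PD1 KO, log2 ratios of 0.19 (-0.51 to 0.81) and 1.25 (0.95 to 1.54). Of 12 tone genes with at least 200 UMIs it alone was at least 2-fold higher in PD1 KO, beside 1.04% of all genes. In PD1 Het none of 8 was, beside 0.212%. Gucy1b1, the partner subunit, named after its values were seen, had -0.36 (-1.25 to 0.41) and 0.81 (0.45 to 1.16).

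Elastic fibre genes were higher in the 40 spots, most of all Fbln5. The list of 17 elastic fibre and vessel wall matrix genes stood at 3507 against 2480.3 CPM in PD1 Het and 5841 against 3013 CPM in PD1 KO, log2 ratios of 0.50 (0.44 to 0.56) and 0.95 (0.92 to 0.99). In the PD1 Het section 1 of 17 was at least 2-fold higher, beside 0.212% of all genes, and in PD1 KO 4 of 17, beside 1.04%, with medians of 0.41 and 0.64. Fbln5, fibulin 5, which helps assemble elastin into fibres, had 42 and 173 UMIs in the 40 spots. It stood at 67.1 CPM in the 40 spots against 23.3 CPM in the rest of PD1 Het, and 169 against 33.2 CPM in PD1 KO, log2 ratios of 1.53 (1.02 to 2.01) and 2.35 (2.10 to 2.59), the PD1 Het value being the largest among genes outside the rule past the UMI minimum. At least 1 UMI of Fbln5 was present in 24 of 40 PD1 Het spots and 34 of 40 PD1 KO spots.

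Eln encodes elastin, the core of the elastic fibre. Its lowest, median and highest PD1 Het spots held 1, 6 and 58 UMIs, and its PD1 KO spots 6, 26 and 198. The highest spot of the rest held 74 and 120 UMIs, so the ranges overlap. The log2 ratios of Eln were 0.64 (0.48 to 0.80) and 1.48 (1.40 to 1.56). Mgp, an inhibitor of vessel calcification, had 0.58 and 1.22, and Fbln2, fibulin 2, had 0.83 and 1.33. Ltbp4, which binds latent TGF-beta, had 0.24 and 0.84. The 8 matrix genes used to drop spots were also higher in the 40 spots, with a summed log2 ratio of 0.17 and 0.38, and their part in these ratios was not tested.

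Markers of arterial endothelium, the cells that line arteries, were higher in the 40 spots of both sections. Only the airway list had a larger ratio among the cell type lists, 1.67 in PD1 KO on 7 UMIs, and it was lower in PD1 Het on 1 UMI. The list of 10 genes stood at 238 against 129 CPM in PD1 Het and 525 against 181 CPM in PD1 KO, log2 ratios of 0.88 (0.63 to 1.13) and 1.54 (1.40 to 1.67). All 10 genes were seen in the 40 spots of each section. With at least 200 UMIs were 3 of the 10 in PD1 Het, of which 1 was at least 2-fold higher, beside 0.212% of all genes, and 8 in PD1 KO, of which 5 were, beside 1.04%. The rule used none of these genes, but this list, like the others, was chosen with earlier results of these data known.

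Sema3g, a semaphorin of arterial endothelium, and Gja4, a connexin of its gap junctions, were among its highest members. Sema3g had 15 UMIs in the PD1 Het spots, 24.0 against 5.74 CPM, and 98 in the PD1 KO spots, 95.7 against 11.1 CPM. Its log2 ratio of 3.10 (2.74 to 3.46) was the largest of the 8485 genes of PD1 KO that the rule did not use, and in PD1 Het, where it missed the UMI minimum, it was 2.06 (1.13 to 2.90). Gja4 stood at 57.5 CPM in the 40 spots against 20.4 CPM in the rest of PD1 Het, and 102 against 25.7 CPM in PD1 KO, log2 ratios of 1.49 (0.94 to 2.01) and 1.98 (1.66 to 2.29). With Tpm2 and Fbln5, Gja4 completes the 3 genes at least 2-fold higher in both sections. They are 27.3% of the 11 genes past 2-fold in PD1 Het and 10% of the 30 in PD1 KO, counted over the 5191 genes with enough UMIs in both. Gja5, the arterial connexin partner of Gja4, named after its values were seen, had 1.55 (0.53 to 2.45) and 2.72 (2.18 to 3.24) on 12 and 42 UMIs. Sox17, a transcription factor of arterial fate, had 1.29 (0.48 to 2.01) and 1.63 (1.19 to 2.05).

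The Notch pathway, which couples these cell layers, was also higher in sum. Its list of 11 genes had log2 ratios of 0.44 (0.23 to 0.64) and 0.99 (0.88 to 1.11), and it shares Dll4 and Hey1 with the arterial list and Notch3 with the pericyte list. At least 2-fold higher were 0 of 7 members with enough UMIs in PD1 Het, beside 0.212% of all genes, and 4 of 10 in PD1 KO, beside 1.04%, with medians of 0.04 and 0.89. Among ligands, Jag1 stood at 41.5 CPM in the 40 spots against 15.8 CPM in the rest of PD1 Het, and 93.8 against 19.2 CPM in PD1 KO, log2 ratios of 1.39 (0.74 to 2.00) and 2.29 (1.95 to 2.62), and Dll4 had 0.76 and 1.03. Among receptors, Notch3, the one of vascular smooth muscle and pericytes, had 0.92 (0.45 to 1.37) and 1.38 (1.11 to 1.64), and Notch1, the endothelial one, -0.01 and 0.83. Ligand and mural receptor were therefore both higher in the same sums of spots, while Notch1 was level in PD1 Het. The target gene Hey1, named after its values were seen, had 11 and 51 UMIs in the 40 spots and log2 ratios of 0.49 (-0.55 to 1.38) and 1.87 (1.41 to 2.31).

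Most top-ranked PD1 KO spots and few top-ranked PD1 Het spots held at least 5 UMIs of both Myh11 and the arterial list. Spots with at least 5 UMIs of Myh11 numbered 3 in PD1 Het and 14 in PD1 KO, and 2 and 14 of these also held at least 5 UMIs of the arterial list. The ranking used Myh11 and so leaves few such spots to the rest, where 0 of 609 and 2 of 641 reached 5 UMIs of it. In the PD1 KO section 9 of the 10 highest-ranked spots held both, and in PD1 Het 2 of 10. Deeper spots reach 5 UMIs more easily, and the part of depth in this count was not tested. The arterial list was also widespread, with at least 1 UMI in 508 of 609 and 632 of 641 spots of the rest. Spots with at least 5 UMIs of the arterial list were not counted apart from Myh11. No link between the markers is therefore read from these counts.

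The lists fell off at different ranks. In the PD1 KO section the arterial list stood at 1039.9 CPM in ranks 1 to 10, 559 in ranks 11 to 20, 287 in ranks 21 to 40, 191 in ranks 41 to 80 and 180.1 below. In the PD1 Het section it was 326, 196, 212, 178 and 126 CPM. The contractile list went from 3837 to 1928, 1539, 1303 and 1135 CPM in PD1 KO. It went from 2193 to 1142, 1099, 1153 and 949 CPM in PD1 Het, so past rank 10 the PD1 Het spots were close to ranks 41 to 80. Without the 3 highest-ranked spots the contractile log2 ratio was 0.29 in PD1 Het and 0.77 in PD1 KO, where it had been 0.53 and 0.92. Ranks 1 to 10 of PD1 KO held more of both lists than the same ranks of PD1 Het. Equal ranks do not match the sections on smooth muscle transcripts. The genes of the rule summed to 3099 CPM in ranks 1 to 10 of PD1 KO and to 1861 CPM in those of PD1 Het. The part of this gap in the higher lists was not tested.

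**Figure D2:**
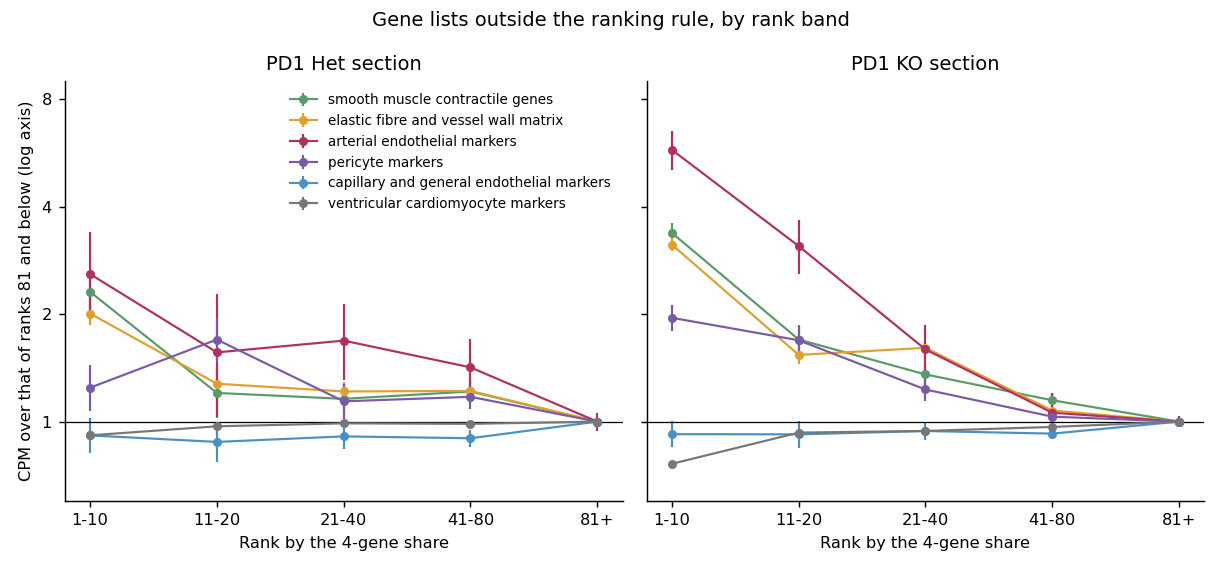
CPM of 6 gene lists in bands of spots ordered by the 4-gene share (horizontal axis), each divided by its CPM in ranks 81 and below (vertical axis, log scale), with 95% counting intervals, in PD1 Het (left) and the PD1 KO section (right). Arterial endothelial, contractile and elastic fibre genes are highest in ranks 1 to 10, while capillary and cardiomyocyte markers stay near or below 1.

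Pericyte markers, which mark the mural cells of small vessels, were higher by less, and the pattern differed between members. The list of 11 genes had log2 ratios of 0.35 (0.24 to 0.46) and 0.59 (0.51 to 0.66), with medians of 0.24 and 0.30. Rgs5, which dampens signals of contracting hormones, had 0.47 (0.30 to 0.63) and 0.93 (0.83 to 1.02), and Pdgfrb, the receptor that recruits mural cells, 0.47 and 0.51. The channel genes Abcc9 and Kcnj8, which define cardiac pericytes, were not higher, with 0.10 and -0.24 for Abcc9 and -0.02 and -0.35 for Kcnj8. Kcnj8 is named after its values were seen. Only Notch3 of the 11 was at least 2-fold higher, in PD1 KO, beside 1.04% of all genes. Higher at all were 8 of 11 members in PD1 Het and 6 of 11 in PD1 KO, beside 56.4% and 59.5% of all genes. Rgs5 gave a large part of the sum, with 83 of 178 list UMIs in ranks 1 to 10 of PD1 Het and 328 of 528 in those of PD1 KO.

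Markers of capillaries, veins and ventricular muscle were near or below the level of the rest, while fetal and stress genes of heart muscle were higher in sum in PD1 Het. Capillary and general endothelial markers had log2 ratios of -0.14 (-0.22 to -0.05) and -0.09 (-0.15 to -0.03), with -0.21 and -0.09 for the fatty acid binding protein Fabp4. Venous markers had -0.14 (-0.37 to 0.08) and 0.04 (-0.12 to 0.19), although Vwf, a clotting protein of larger vessels in that list, had 0.48 (-0.20 to 1.09) and 1.23 (0.84 to 1.60). With the most matrix-rich 40% of spots dropped, the PD1 KO value of Vwf was -0.070. Haemoglobin and other red blood cell genes were lower, with -0.34 and -0.36. Ventricular cardiomyocyte markers stood at 80420.3 CPM in the 40 PD1 Het spots and 75249.6 CPM in the 40 PD1 KO spots, against 83206 and 83674 CPM in the rest. Fetal and stress cardiomyocyte genes had 0.50 (0.39 to 0.60) in PD1 Het, about as high as the contractile list, and -0.01 (-0.08 to 0.06) in PD1 KO. In PD1 Het the median chosen spot held 813 CPM of these stress genes, under the 874 CPM of the rest, and the highest held 8130 CPM. Atrial markers had 0.61 (-0.09 to 1.25) and 0.25 (-0.34 to 0.78), on 22 and 30 UMIs. The part of these genes in the other ratios was not tested. The chosen spots thus held ventricular heart muscle transcripts close to the level of the rest, with 63868 CPM in ranks 1 to 10 of PD1 KO and 76233 CPM in those of PD1 Het. In such regions fewer smooth muscle cells in a spot cannot be told apart from less RNA per cell.

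**Figure D3:**
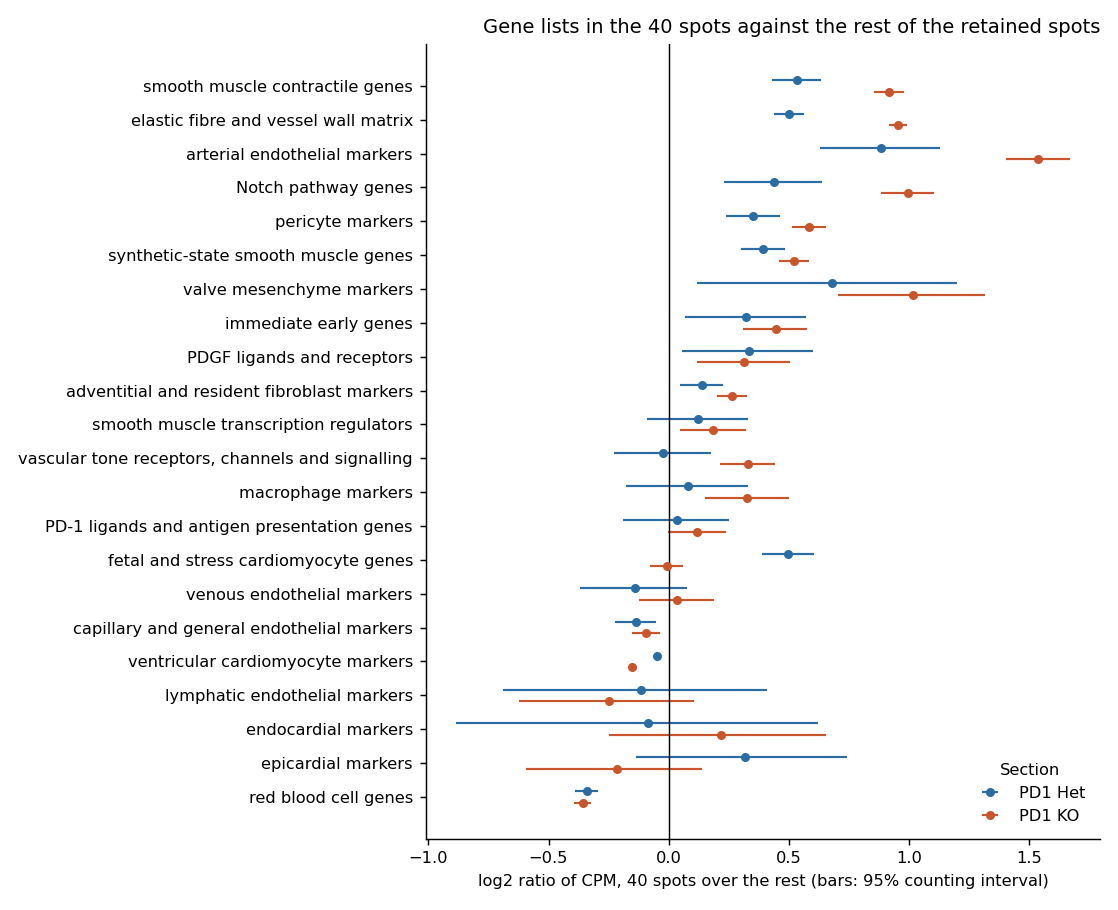
Log2 ratio of the CPM of 22 gene lists in the 40 spots over the rest of the retained spots (horizontal axis), with 95% counting intervals, for the PD1 Het section (blue) and the PD1 KO section (orange). Arterial endothelial markers lie at 0.88 and 1.54, and capillary, cardiomyocyte and red blood cell genes lie at or below 0.

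Markers of fibroblasts, of valve mesenchyme and of other smooth muscle states were also higher in sum. The summed valve list was above the contractile list in both sections. Genes linked to the synthetic, less contractile state of smooth muscle had 0.39 (0.30 to 0.48) and 0.52 (0.46 to 0.58). Crip1, a LIM-domain protein, led that list with 0.87 (0.67 to 1.07) and 1.21 (1.08 to 1.34), and Vim, vimentin, had 0.50 and 0.60. Adventitial and resident fibroblast markers had 0.14 (0.05 to 0.23) and 0.26 (0.20 to 0.33). Their medians were 0.05 and 0.22, where the median over all genes was 0.04 and 0.07. Valve mesenchyme markers, 33 and 100 UMIs in all, had 0.68 (lower bound 0.12) and 1.02 (0.70 to 1.31), where Vcan, the proteoglycan versican, had 0.74 and 1.18. Vcan alone gave 70 of the 100 UMIs of this list in PD1 KO. The part of these cells in the higher vessel wall genes was not tested.

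Across all genes, the vessel wall and the arterial lining were among the genes highest in both sections. By the rule for named genes, the 12 largest ratios common to both sections belonged to Fbln5, Gja4, Tpm2, Myl9, Notch3, Crip1, Fbln2, Lama5, Fryl, Col18a1, Dll4 and Wtip. Lama5, a laminin chain of vessel basement membranes, had 0.81 and 1.17, and Col18a1, a basement membrane collagen, 0.78 and 0.82. Of these, Fryl, Wtip and Dll4 had under 200 UMIs in the rest of PD1 Het (192, 176 and 187) and met the minimum only with the 40 spots in which they were high. Of the 11 and 88 genes at least 2-fold higher, 5 and 15 met it only in that way. At the other end, no gene in the 12 smallest common ratios was 2-fold lower in both sections. Among these, Casz1, a transcription factor of heart muscle, had -0.82 and -0.74, and Apln, the peptide apelin that capillary sprouts release, -0.68 and -0.76. Casz1 had 9 and 18 UMIs in the 40 spots. In all, 34 genes (0.655%) were at least 2-fold lower and 11 (0.212%) higher in PD1 Het, and 41 (0.483%) lower and 88 (1.04%) higher in PD1 KO.

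The 10 largest ratios of PD1 KO outside the rule belonged to Sema3g, Mustn1, C1s1, Ano1, Fbln5, Jag1, Mark1, Ace, Stmn2 and Lepr, and those not described above are named after their values were seen. Mustn1, a small nuclear protein of muscle tissues, stood at 36.7 CPM in the 40 spots against 10.6 CPM in the rest of PD1 Het, and 101 against 11.8 CPM in PD1 KO, log2 ratios of 1.80 (1.08 to 2.46) and 3.09 (2.74 to 3.44). Ano1, a chloride channel of smooth muscle, had 1.38 (0.31 to 2.31) and 2.50 (2.01 to 2.97), and Ace, the enzyme that makes angiotensin II, 1.58 (0.98 to 2.15) and 2.22 (1.88 to 2.55). These 3 genes were higher in both sections, and missed the UMI minimum in PD1 Het. C1s1, a protease of the complement cascade, had 0.51 and 2.56, Mark1, a kinase of microtubule-binding proteins, 0.90 and 2.26, Stmn2, a stathmin of neurons, 1.39 and 2.15, and Lepr, the leptin receptor, 0.18 and 2.13. Just below them, Tbx2, a T-box repressor, had 0.59 and 2.06, and Mrvi1, a target of the nitric oxide pathway in smooth muscle, 0.73 and 2.12. In the rest of PD1 KO, C1s1, Ano1, Mark1, Stmn2 and Mrvi1 had under 200 UMIs (185, 158, 167, 185 and 164). They met the minimum only with the 40 spots in which they were high.

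**Figure D4:**
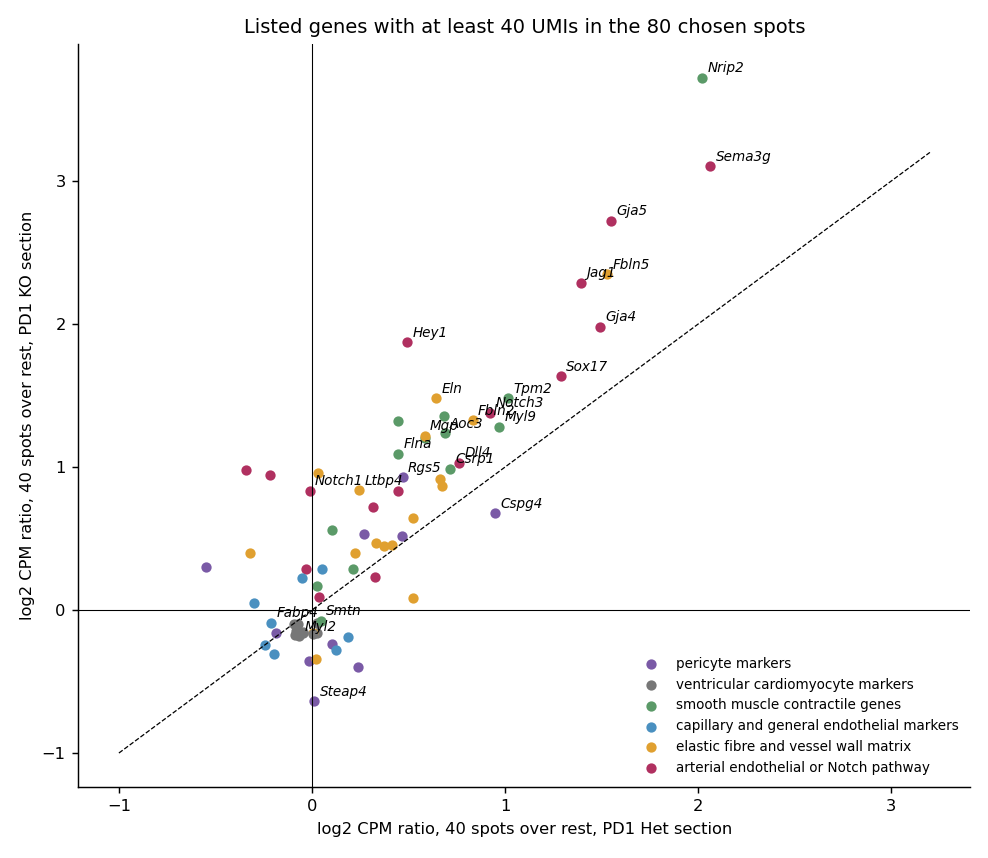
Log2 CPM ratio of the 40 spots over the rest in PD1 Het (horizontal axis) and the PD1 KO section (vertical axis) for listed genes with at least 40 UMIs in the 80 chosen spots, coloured by list, with equal ratios on the dashed line. Most arterial, Notch pathway and contractile genes lie above the line, and cardiomyocyte genes lie in a tight group near 0.

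Between the genotypes, vessel wall genes had higher levels in PD1 KO, by more in the 40 spots than in the rest. Over the 4841 genes with enough UMIs, the median gene itself had a log2 ratio of PD1 KO over PD1 Het of 0.29 in the 40 spots and 0.28 in the rest. The contractile list had 0.63 (0.52 to 0.75) in the 40 spots and 0.25 (0.22 to 0.29) in the rest. Elastic fibre genes had 0.74 (0.67 to 0.81) and 0.28 (0.26 to 0.30). Arterial endothelial markers had 1.14 (0.88 to 1.41) and 0.48 (0.39 to 0.58), and Notch pathway genes 1.05 and 0.49. So these lists stood above the median gene in the 40 spots, while contractile and elastic fibre genes were close to it in the rest. With no matrix-rich spot dropped the contractile list had 0.14 in the 40 spots, below the median gene as reported, so its excess in PD1 KO depended on leaving those spots out. In the 23 PD1 Het and 21 PD1 KO dropped spots that would then be chosen, arterial markers stood at 419 and 482 CPM. Notch pathway genes stood there at 615 and 610 CPM, and elastic fibre genes at 14401 and 13290 CPM. The part of leaving those spots out in the ratios of these lists was not tested.

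The levels of the genes of the rule in the chosen spots were set by the choice and are given as a description. The 4-gene sum was 1150.4 CPM in the chosen PD1 Het spots and 1571 CPM in the chosen PD1 KO spots, a log2 ratio of 0.45 against 0.14 in the rest. Myh11 alone had 0.87 (0.43 to 1.32) and 0.31. Genotype, sex, the plane of the section and the animal cannot be told apart here.

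Single genes of these lists were read in the same way. Eln had log2 ratios of PD1 KO over PD1 Het of 1.29 (1.12 to 1.46) in the 40 spots and 0.45 in the rest, and Fbln5 1.33 (0.84 to 1.85) and 0.51. Sema3g had 2.00 (1.21 to 2.89) and 0.96, and Gucy1a1 1.63 (0.96 to 2.36) and 0.56. Smtn stayed level, with -0.06 (-0.37 to 0.26) and 0.06. Of 10 contractile genes with enough UMIs in both sections, 2 were at least 2-fold higher in the PD1 KO spots and 0 lower, and of 17 elastic fibre genes 3 and 0. Of the 3 arterial genes with enough UMIs 0 were at least 2-fold higher, with a median log2 ratio of 0.64, below the 1.14 of the list's sum, and the other members missed the minimum. Over all 4841 genes, 356 (7.35%) were at least 2-fold higher and 9 (0.186%) lower in the 40 spots, and 41 (0.847%) and 2 (0.0413%) in the rest. This split depended on scaling: relative to the median gene 137 (2.83%) were higher and 68 (1.4%) lower, with TMM factors 125 and 73, and without mitochondrial genes in the total 189 and 33.

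**Figure D5:**
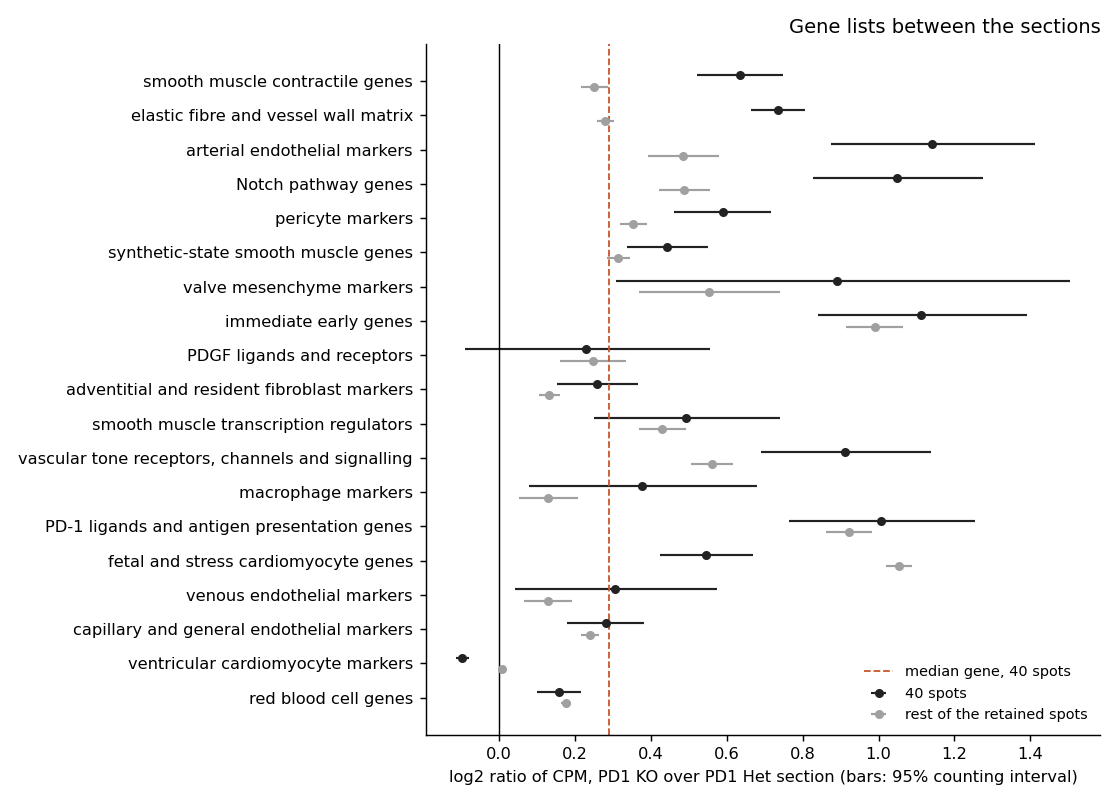
Log2 ratio of the CPM of 19 gene lists in PD1 KO over the PD1 Het section (horizontal axis), with 95% counting intervals, in the 40 spots (black) and in the rest (grey). The dashed line marks the median gene of the 40 spots at 0.29. Vessel wall and arterial lists lie to the right of it in the 40 spots, with 1.14 for arterial endothelial markers.

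The genes whose ratio between genotypes differed most between the 40 spots and the rest included no contractile, arterial or elastic fibre gene. By the rule for named genes, the 8 largest were Glod4, Nipbl, Cpt1a, Dnajc30, Elp3, Abr, Hip1 and Marveld1. Cpt1a, which carries fatty acids into mitochondria, had 7 UMIs in the PD1 Het spots and 57 in the PD1 KO spots, a log2 ratio of 2.32 (1.18 to 3.69) against 0.59 in the rest. All 8 rested on 5 to 10 UMIs in the PD1 Het spots. The 8 smallest were Nppa, Fam53b, Eftud2, Ccdc58, Mgat2, Dock1, Atp13a1 and Zfp622, of which Nppa, atrial natriuretic peptide, had by far the most UMIs, 263 and 630. Its log2 ratio of PD1 KO over PD1 Het was 0.55 (0.34 to 0.76) in the 40 spots and 1.93 in the rest.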

How the data were processed

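Visium spatial libraries of 1 PD1 Het and 1 PD1 KO heart section were used. The deposited values are raw UMI counts. Per the file headers, Space Ranger 1.1.0 wrote them, and the submitters' processing notes name mm10 and GRCm38. The rule by which spots were kept is not given in the sources used here. Positions of spots on the slide were not used here. Gene symbols are those of the files, and 32235 of their 32285 IDs matched GENCODE vM21, which gave positions. Of the barcodes, 225 occur in both sections, since they name places on a slide, and 0 of these were chosen in both.

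UMIs were summed over spots and divided by all UMIs of those spots (CPM). Ratios have exact conditional 95% intervals. Genes needed at least 200 UMIs over the retained spots of a section, and between sections also at least 40 in the chosen spots of both together; rule genes were left out of the counts. Lists (28, with 242 genes, of which 2 did not match a symbol) were described by sums, counts and medians. The members and lists were chosen with earlier results of these data known.

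Named genes were the 4 rule genes, up to 3 members of each list with the most UMIs, the 12 largest and 12 smallest ratios shared by both sections, the 8 largest and 8 smallest ratios of ratios (both without rule, mitochondrial, ribosomal protein, haemoglobin and sex-linked genes and unnamed gene models), and Pdcd1, Cd274 and Pdcd1lg2. A gene picked by this rule is not reported here. The ratio code was tested on simulated data. Python 3.11.15, numpy 2.4.6 and scipy 1.17.1 were used, and edgeR 4.0.16 for TMM factors alone. Alternatives changed the UMI minimums, the matrix-rich spots dropped, the number of spots, the ranking genes and their weights, thinning and scaling.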

Additional observations from a re-analysis of the deposited data

Results flagged for a closer look

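Nppa, the natriuretic peptide of stressed heart muscle, moved in opposite directions against the rest in the 2 sections. Its log2 ratio was 1.21 (1.02 to 1.40) in the PD1 Het section and -0.16 (-0.28 to -0.05) in the PD1 KO section. The difference was not tested. In the PD1 Het section 86 and 54 of the 263 UMIs came from 2 spots, and without the highest spot of each section the log2 ratios were 0.68 and -0.50. By rank, Nppa stood at 252 CPM in PD1 Het ranks 1 to 10 and 617 CPM in ranks 21 to 40.

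The matrix-rich spots that the rule drops held smooth muscle transcripts above the rest. The 4 genes of the rule summed to 676 CPM in the 162 PD1 Het spots dropped and 712 CPM in the 170 PD1 KO spots, against 369 and 407 CPM in the rest. Myh11 stood there at 43.4 CPM (35.3 to 52.9) and 32.7 CPM (27.2 to 38.9), against 8.66 and 10.8 CPM in the rest. When no spot was dropped, 23 of the 40 highest-ranked PD1 Het spots and 21 of the PD1 KO spots came from this set. Elastic fibre genes stood at 9908 and 9796 CPM in the dropped spots, against 3507 and 5841 CPM in the 40 spots.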

How the results depend on the processing

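The counts of genes and the sizes of the ratios depended on how many spots were taken and on the matrix-rich spots, while the direction of the contractile list held in all alternatives run. With no spot dropped, 168 PD1 Het and 360 PD1 KO genes were at least 2-fold higher in the 40 spots (11 and 88 as reported), the contractile list had log2 ratios of 1.38 and 1.29, and PD1 KO over PD1 Het was 0.14. With the most matrix-rich 40% dropped these were 3 and 9 genes, 0.30 and 0.51, and 0.47, with 180 genes 2-fold apart between sections (365 as reported), and Vwf fell to -0.070 in the PD1 KO section. With 20 spots they were 55 and 294 genes, 0.82 and 1.32, and 0.76. With 80 spots they were 4 and 20 genes, 0.42 and 0.58, and 0.42, with 152 genes apart. Ranking without Tagln gave 0.84 for the PD1 KO contractile list, and equal weights 0.65 for the PD1 Het list, where Kdm4b turned to 0.14. Ranking on thinned spots gave 52 PD1 KO genes, a PD1 KO list of 0.79 and a ratio between sections of 0.51, and Nipbl turned to 0.13 in the PD1 Het section. Without mitochondrial genes the ratio between sections was 0.44 with 222 genes apart, with the median gene set to 1 it was 0.34 with 205 (and the PD1 KO list 0.85), and with TMM factors 0.30 with 198. With the UMI minimums at 0.5 times their value 66, 189 and 951 genes passed, at 2 times 2, 37 and 79, and with at least 1 UMI 1297, 1409 and 4581. With the minimum met in the rest alone, chosen after seeing the data, 6 PD1 Het and 73 PD1 KO genes passed. Without the 3 highest-ranked spots, also chosen then, the list had 0.29 and 0.77. Of 38 results for named genes past 2-fold, 35 kept their direction in every alternative run. The 38 include 3 results in PD1 Het and 4 in PD1 KO for genes of the rule, which the ranking used. Others are for genes named because their ratios were large, so this count is a description. Values with 0 UMIs on one side give no ratio and were left out. The cause of these shifts was not tested. No paired analysis was possible because each genotype has 1 section. Depth limits the PD1 Het section most, where 10 of 18 contractile and 3 of 10 arterial genes reached 200 UMIs.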

Other observations

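Genes of injury, immunity and growth signals were read in the same spots. Immediate early genes, which cells switch on within minutes of a stimulus, had log2 ratios of the 40 spots over the rest of 0.32 (0.07 to 0.57) and 0.44 (0.31 to 0.58). Between sections they were higher in the PD1 KO section by similar amounts in the 40 spots, 1.11 (0.84 to 1.39), and in the rest, 0.99 (0.91 to 1.07). Antigen presentation genes did the same, with 1.01 (0.76 to 1.25) and 0.92 (0.86 to 0.98), and B2m, the light chain of MHC class I, had 1.21 in the 40 spots. Ligands and receptors of the PDGF family, which recruits mural cells, were close between sections, with 0.23 (-0.09 to 0.56) in the 40 spots.

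Macrophage markers had log2 ratios of the 40 spots over the rest of 0.08 (-0.18 to 0.33) and 0.33 (0.15 to 0.50). T cell markers had 1 UMI in the 40 PD1 Het spots and 10 in the 40 PD1 KO spots. Pdcd1lg2 had no UMI in any retained spot, and Cd274, the other PD-1 ligand, had 0 UMIs in the chosen PD1 Het spots and 1 in the chosen PD1 KO spots.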
